A study of Drosophila melanogaster with 8 samples.

Results

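The regions described here were the widest stretches of accessible chromatin in wild-type Drosophila melanogaster embryos aged 2.5 to 3 h. A region was chosen by width, as a peak longer than 1500 bp in either of the 2 wild-type (WT) libraries of that age, and overlapping peaks of both libraries were merged at 1 bp. The rule gave 321 regions, whose limits come from the wide late WT peaks alone. Merging the peaks of all 8 libraries gave 38545 regions, the set called all merged regions below, whose limits can reach further. Of the 321 regions, 178 were wide in both WT libraries, 82 in replicate 1 alone and 61 in replicate 2 alone. They spanned 1502 to 3636 bp each, with a median of 1734 bp, and 595.9 kb together. Because the rule used the peak widths of the 2 late WT libraries, values from those libraries are given as a description, with no test.

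ATAC-seq maps open chromatin with a transposase that inserts adapters where DNA is free of nucleosomes, and a peak is a stretch with many insertions. In the early fly embryo the nuclei divide without cell membranes, most RNA is maternal, and the zygotic genome is switched on over the last of these divisions before the cells form. Pioneer factors such as Zelda open chromatin ahead of this wave, and the gap, pair-rule and dorsoventral genes that pattern the embryo are among its first targets. Wide accessible stretches can hold a promoter and its enhancers side by side, or the promoters of neighbouring genes.

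The 8 libraries formed 4 groups of 2: WT at 1 to 1.5 h, mutant at 1 to 1.5 h, WT at 2.5 to 3 h and mutant at 2.5 to 3 h, all from whole embryos. The study asks what IntS11, the RNA endonuclease of the Integrator complex, does in the embryo. The titles of all 8 libraries, WT included, carry the words IntS11 mislocalized. They name no allele, driver or maternal genotype, so that the mislocalization belongs to the mutant alone is inferred. Nothing states that the replicates came from separate collections of embryos, so the spread between libraries may be technical. The p-values below are over libraries only. With 2 against 2 libraries, the exact permutation p-value is the same for any groups that do not overlap, whatever their spread.

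The lists held 25201 and 23815 peaks in early WT, 18706 and 15569 in early mutant, 19002 and 18440 in late WT, and 19995 and 19035 in late mutant. The lists give positions only. Sequencing depth is therefore unknown, and where no peak was called the chromatin was not shown to be closed. The shortest peak differed between groups, at 122 and 120 bp in early WT, 100 and 101 bp in early mutant, 156 and 154 bp in late WT, and 148 and 149 bp in late mutant. The shortest gap between peaks differed too, at 123 and 121, 101 and 102, 157 and 155, and 149 and 150 bp in that order. Peak numbers and pieces per region are therefore not strictly comparable between groups. In bulk embryos, fewer nuclei with an open region cannot be told apart from narrower opening in each nucleus.

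Most of the wide regions lay at genes. A gene end, taken as either end of an annotated gene span with 250 bp either side, was reached by 226 of the 321 regions, or 70.4%. Another 91 regions (28.3%) lay inside a gene away from its ends, and 4 (1.25%) lay between genes. The share at a gene end was 67.2% among the 1101 late WT regions whose widest peak was over 1000 and at most 1500 bp, the next width class, and 25.4% among all merged regions, whose median span was 337.0 bp. A longer region meets more gene ends by its length, so these shares are given as a description.

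Many of the regions joined several genes. At least 2 gene ends of different genes were reached by 151 regions (47.0%), against 39.7% in the next width class, and 58 regions (18.1%) reached at least 3 genes, against 7.72%. Together they marked 459 genes, of which 392 were protein coding, 18 antisense, 16 long noncoding, 15 snoRNA, 11 microRNA and 4 snRNA genes, and 3 were a tRNA, another noncoding RNA and a pseudogene. There were 63 genes that lay wholly inside a region, in 45 of the regions. The regions fell on 2L (47), 2R (73), 3L (56), 3R (86) and X (59), and none on 4 or Y. The median gap between neighbours on a chromosome arm was 219.5 kb, and 10 gaps were under 10 kb.

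The widest region of all lay at slam, an early zygotic gene needed for membrane growth at cellularization (2L, 6373524 to 6377159, 3636 bp, reaching a gene end). It was covered over 2831 and 2647 bp in early WT, 2331 and 1917 bp in early mutant, 3577 and 3636 bp in late WT, and 3548 and 3578 bp in late mutant. The slam region was made of 5 and 3 peaks in early WT and 4 and 4 in early mutant, and of 1 unbroken peak in all 4 late libraries. The late lists hold no gap under 149 bp, so shorter gaps could be seen only in the early lists. Early mutant was lower than early WT without overlap, at 77.5% of its mean, and the late genotypes overlapped.

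The 10 widest regions were ranked by the mean of their widest late WT peak, so that a longer span with a gap in one library, such as that of 3239 bp inside salm, ranks lower. Of the other 9, one lay inside Nrt, which encodes the cell-surface glycoprotein Neurotactin, and reached the end of mus302, at 3L, 16773139 to 16776363. Others lay inside wech, brat and toc, which encode a TRIM protein of muscle attachment, a translational repressor and a microtubule-associated protein. Another held the microRNA cluster with mir-309, mir-286, mir-3, mir-4, mir-5 and 3 copies of mir-6 (2R, 19659038 to 19662203), a cluster known for clearing maternal mRNA. The last 4 lay at eEF1alpha1 with a snoRNA gene in its span, at alphaTub84B, at Arpc4 with WDR79, tctn and B9d2, and at Caf1-105 with CG11777.

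Inside brat (2L, 19168223 to 19171397) the covered length was 2651 and 2538 bp in early WT, 1064 and 487 bp in early mutant, 3171 and 3148 bp in late WT, and 2030 and 1863 bp in late mutant. The brat region was lower in both mutant libraries at either age, at 29.9% of the WT mean early. Inside toc the corresponding lengths were 1973 and 1539, 1567 and 1621, 3172 and 3146, and 3007 and 2981 bp. There the early groups overlapped, unlike at brat, and the early mutant mean was 90.8% of WT. The microRNA cluster was covered over 1361 and 1118 bp in early WT, 1320 and 1596 bp in early mutant, 3159 and 3126 bp in late WT and 3030 and 3029 bp in late mutant. Its early groups overlapped as well, with a mutant mean at 117.6% of WT.

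Over all 321 regions together, covered length was lowest in the early mutant and highest in late WT. It counts the bases of a library's peaks inside the regions and was 400.3 and 381.1 kb in early WT, 219.1 and 189.1 kb in early mutant, 569.9 and 556.1 kb in late WT, and 447.1 and 445.5 kb in late mutant. The groups did not overlap at either age. Means were 390.7 ± 13.6, 204.1 ± 21.2, 563.0 ± 9.7 and 446.3 ± 1.08 kb (SD, n = 2 each).

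**Figure D1:**
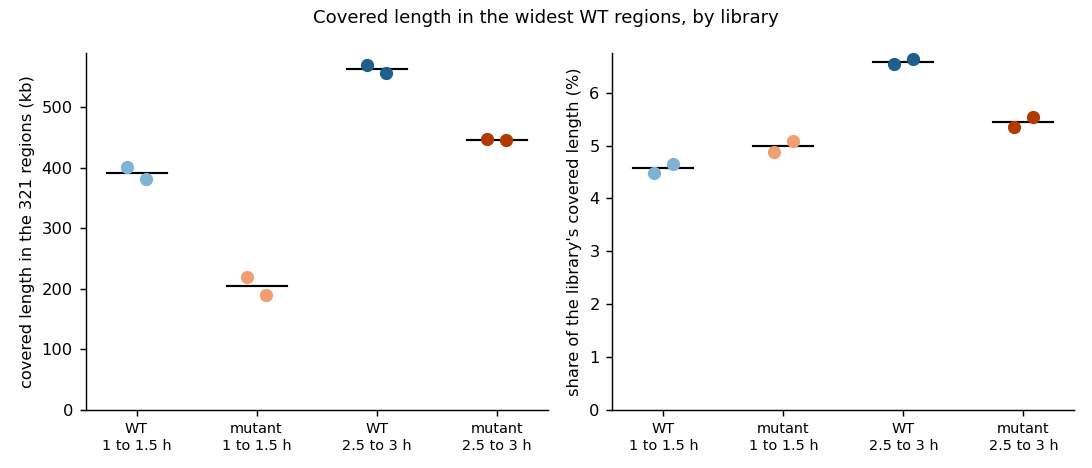
Covered length in the 321 regions (left, kb) and that length as a share of all bases covered by the library's peaks (right, %), with 1 point per library and a line at each group mean. On the left early mutant, at 219.1 and 189.1 kb, lies below every other group, while on the right the early mutant points lie above the early WT points.

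At 1 to 1.5 h, whose libraries the rule did not use, the mutant covered 52.2% of the WT length, a difference of -186.6 kb. The choice on late WT width can still favour WT at this age. In regions chosen in the same way on late mutant width, the early mutant covered 64.3% of early WT. A two-sided exact permutation test gave p = 0.333, the smallest that 2 against 2 libraries allow, so no such comparison can pass 0.05. The whole early mutant lists also covered less, 4098.9 ± 547.0 kb against 8551.0 ± 511.8 kb (SD, n = 2 each), or 47.9%. As a share of each library's covered length, the regions held 4.49% and 4.65% in early WT and 4.88% and 5.09% in early mutant. The early mutant share was higher by 0.417 percentage points (4.99 ± 0.148 against 4.57 ± 0.115, exact permutation p = 0.333). The part played in the lower covered length by the size of the early mutant lists was not tested. With common limits of 160 bp for gaps and short peaks in every list, the difference was -210.3 kb.

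Early narrowing was spread over most of the regions. In 280 of 321 (87.2%) the covered length of both early mutant libraries was below that of both early WT libraries, against 41.9% of all merged regions called at that age and 83.8% of the next width class. Among regions called in all 4 early libraries the shares were 253 of 290 regions (87.2%), 67.4% of all regions and 84.3% of the next width class. The share among the widest regions was thus close to that in the next width class. The opposite, both mutant libraries above both WT, held for 4 regions (1.25%), against 4.02% of all regions, and among regions called in all 4 libraries for 1.38% against 5.23%. Without early WT replicate 1 this share was 4.67%. The choice on late WT width can favour narrowing in the mutant. Among regions chosen on late mutant width instead, 72.5% were narrower and 8.06% wider in the early mutant.

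The median region kept 49.4% of its early WT length in the early mutant, against 51.2% in the next width class and 24.8% over all regions with WT coverage. By region, 47 kept under 25%, 219 from 25% to 75%, 44 from 75% to 100% and 11 over 100%. Median covered length per region was 1258 and 1200 bp in early WT and 672 and 539 bp in early mutant. Regions at gene ends and inside genes were alike, at 51.7% and 52.4% of WT length, and the 4 between genes stood at 82.2%.

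**Figure D2:**
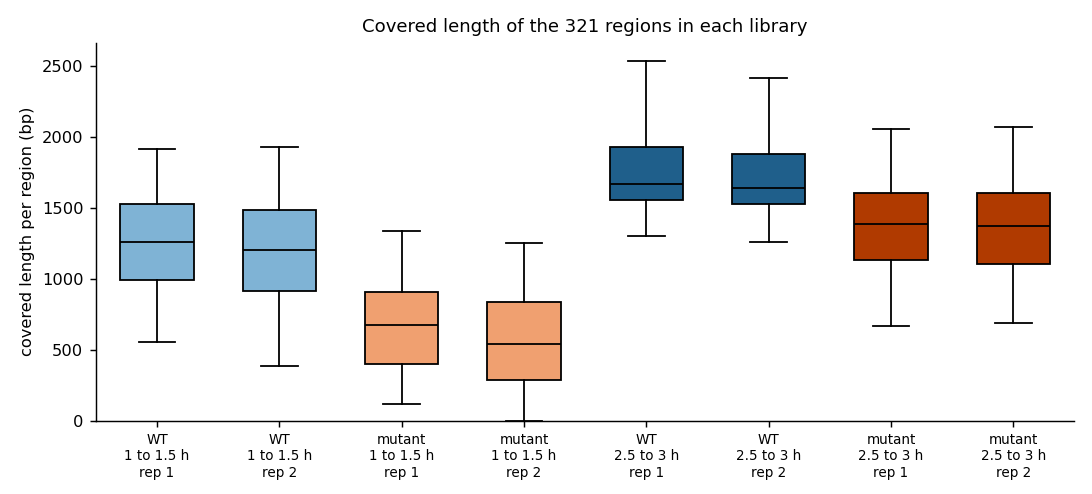
Covered length per region (bp) for the 321 regions in each of the 8 libraries. Boxes span the quartiles with a line at the median, and whiskers reach the 5th and 95th percentiles; the early mutant medians, 672 and 539 bp, are the lowest of the 8.

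Wide stretches were still called as regions in the early mutant, mostly in pieces. The widest peak in a region had a median of 848 and 843 bp in early WT and 381 and 343 bp in early mutant. The regions held 643 and 619 peaks in early WT and 664 and 595 in early mutant, so a similar number of peaks covered less length. A peak over 1500 bp remained in 50 and 44 of the regions in early WT, and in 5 and 2 in early mutant. The 5 regions with such a peak in an early mutant library were those at sna, eve, mus302, Pkn with CG2063, and one near Tim23.

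Presence was counted from 1 bp of a peak upward, a measure that wide regions meet easily. A peak was called in 320 and 320 of the regions in early WT, 308 and 301 in early mutant, 321 and 321 in late WT, and 320 and 321 in late mutant. All 8 libraries called 289 regions (90.0%), against 17.8% of all merged regions and 81.1% of the next width class. Of the rest, 29 were called in 7 libraries, 2 in 6 and 1 in 5. The rule itself gives each of the 321 regions a late WT peak, whereas a merged region can hold a peak of a single library. The share called in all 8 libraries is therefore higher in part by the choice of regions. Only 1 region (0.312%) was called in both early WT and neither early mutant library, against 14.5% of all regions. Without early mutant replicate 1 this share was 5.61%, and without replicate 2 it was 3.74%. None was called in the early mutant alone, against 2.04% of all regions. Where 50% of a region had to be covered to count as present, the share lost early was 41.7% and the share present in all 8 libraries was 15.6%.

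The region lost by that count lay at the ends of pygo and rod (3R, 31579766 to 31581762), which encode a Wingless coactivator and a kinetochore protein. It was covered over 466 and 873 bp in early WT, 0 and 0 bp in early mutant, 1877 and 1704 bp in late WT, and 916 and 1234 bp in late mutant. The region was therefore called again at the later age in both mutant libraries, at lower length than in WT. The region inside the kinase gene Doa was called in 5 libraries, with 0 and 213 bp in early WT and 0 and 0 bp in early mutant. At beta4GalT7 with EMC6 the early lengths were 329 and 0 bp in WT and 165 and 0 bp in the mutant. Both of these were narrow or not called in early WT too. Among the 20 regions without a peak in early mutant replicate 2 were those at CG6724 and inside eIF3c, a translation initiation factor gene, which were both called in replicate 1. The region inside the splicing factor gene Prp8 was the 1 region without a peak in late mutant replicate 1.

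The gap genes, which divide the embryo into broad domains, were touched at 4 of the 5 genes in the trunk gap list, each by 1 region. In comparison, 3.6% of all protein-coding genes were touched by a region, at an end or in the body. The regions touched gt at its end and hb, Kr and kni inside the gene. In 3 of 4, beside 87.2% of the 321 regions, both early mutant libraries were below both WT libraries, with a median mutant length of 71.7% of WT and a range of 52.8% to 88.0%. Inside hb (3R, 8691927 to 8694205) covered length was 1960 and 2193 bp in early WT, 1755 and 1107 bp in early mutant, 2279 and 2244 bp in late WT, and 2012 and 2232 bp in late mutant. This was 1 peak in each early WT library and 4 and 3 pieces in early mutant. Inside kni (3L, 20692630 to 20694800) the lengths were 1459 and 983, 521 and 768, 2080 and 2168, and 1469 and 1542 bp. Both regions were lower in both mutant libraries at either age, hb at 93.8% and kni at 70.9% of the late WT mean. At gt (X, 2427342 to 2429197) the early groups overlapped, with 1566 and 1226 bp in WT and 1155 and 1301 bp in mutant. The terminal and head gap list had 2 of 8 genes touched, hkb and oc, with medians at 60.7% of WT.

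The pair-rule genes, which set up alternate segments, were touched at 7 of 9 genes, by 8 regions. Their median early mutant length was 73.1% of WT, from 12.3% at prd to 131.7% at eve. Both mutant libraries were below WT in 6 of 8, beside 87.2% of the 321 regions, and above in 1. Ends of eve, ftz, odd, slp1 and opa were reached, and run and prd were covered inside the gene. At eve (2R, 9978958 to 9980612) covered length was 1101 and 1185 bp in early WT, 1521 and 1490 bp in early mutant, 1648 and 1606 bp in late WT, and 1484 and 1581 bp in late mutant. The eve region was thus wider in the early mutant and slightly narrower in the late mutant, without overlap at either age. At odd the early lengths were 1339 and 1768 bp in WT and 1541 and 1640 bp in mutant, which overlapped. At ftz they were 1642 and 1729 bp in WT and 1314 and 1433 bp in mutant, which did not. Inside prd (2L, 12083598 to 12085290) they were 560 and 821 bp in WT and 170 and 0 bp in mutant. The late prd lengths were 1690 and 1678 bp in WT and 619 and 268 bp in mutant, so the mutant was lower at both ages.

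Among dorsoventral genes, the mesoderm list had 3 of 9 genes touched, sna, twi and stumps, the first 2 being the transcription factors that set the mesoderm. At sna (2L, 15476870 to 15478661) covered length was 1702 and 1525 bp in early WT, 1538 and 1627 bp in early mutant, 1766 and 1792 bp in late WT, and 1632 and 1662 bp in late mutant. Inside twi it was 1562 and 1454 bp in early WT, 725 and 910 bp in early mutant, 1608 and 1646 bp in late WT, and 1316 and 1019 bp in late mutant. The sna region overlapped between early genotypes, at 98.1% of WT, whereas twi stood at 54.2%. In the neuroectoderm list, sog, SoxN and D were touched, and all 3 were narrower in both early mutant libraries, beside 87.2% of the 321 regions. Their median was 33.3% of WT, from 15.9% to 72.8%. SoxN, a Sox transcription factor of the nervous system, had 1319 and 1046 bp in early WT, 129 and 248 bp in early mutant, 1770 and 1928 bp in late WT, and 560 and 196 bp in late mutant. This late mutant mean, 20.4% of WT, was the lowest of the 321 regions. In the dorsal ectoderm list, 2 of 14 genes were touched, zen and pnr, at 54.2% and 70.2% of early WT.

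**Figure D3:**
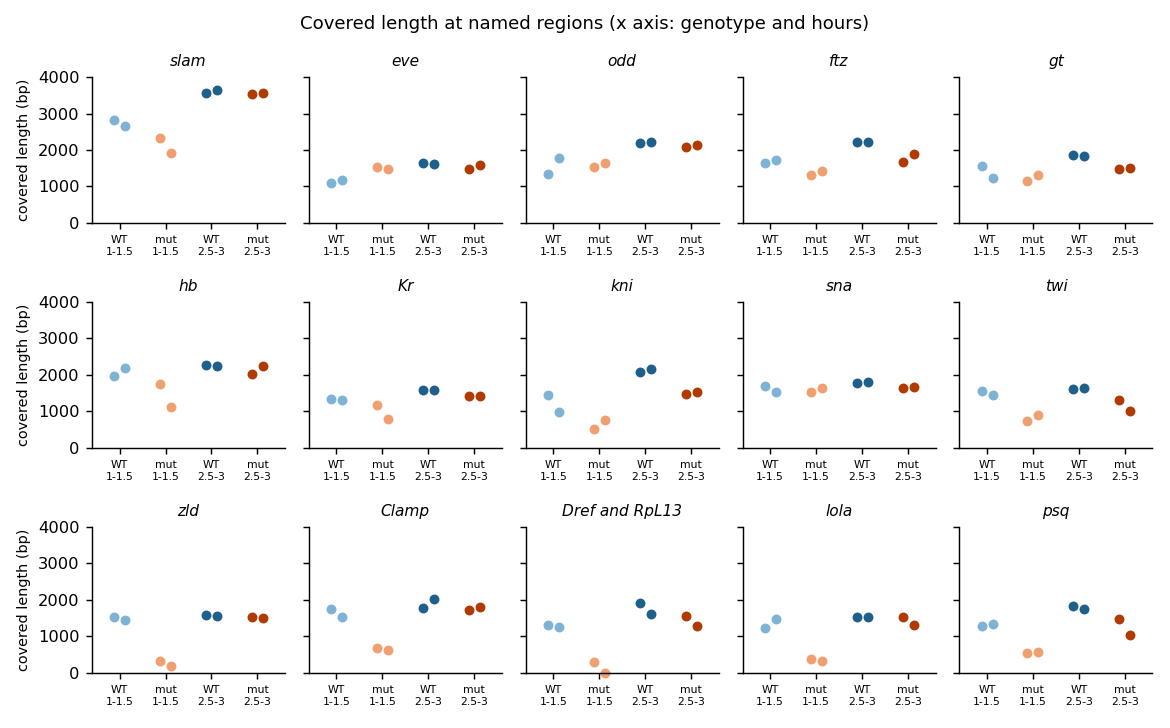
Covered length (bp) of 15 regions, 1 panel each named by its gene, with 1 point per library in each of the 4 groups. The eve points are higher in early mutant than in early WT, and those of sna overlap. Panels with their lowest points in early mutant include slam, ftz, hb, kni, twi, Clamp, zld, lola and Dref with RpL13.

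The pioneer and chromatin factor list had 5 of 14 genes touched, Clamp and Dref at an end and zld, psq and lola inside, and all 5 regions were narrower in both early mutant libraries, beside 87.2% of the 321 regions. Their median was 25.5% of WT, from 11.1% to 43.1%, against a median of 49.4% for the 321 regions. The prd and SoxN regions, of the pair-rule and neuroectoderm lists, lay inside that range, and the differences between lists were not tested. Inside zld (X, 19780769 to 19782346), which encodes the pioneer factor Zelda, covered length was 1522 and 1455 bp in early WT, 313 and 176 bp in early mutant, 1578 and 1548 bp in late WT, and 1528 and 1491 bp in late mutant. The zld region was 1 peak in all 8 libraries, so the early difference was one of width and not of pieces. At Clamp (2L, 22167350 to 22169359), a GA-repeat binding factor, it was 1745 and 1540, 668 and 634, 1784 and 2010, and 1710 and 1793 bp. At Dref with RpL13 (2L, 9966621 to 9968535) it was 1309 and 1251, 285 and 0, 1915 and 1613, and 1552 and 1284 bp. In the late mutant zld and Clamp were within 10% of their WT means, at 96.6% and 92.3%, and Dref was at 80.4%.

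Ribosomal protein genes were touched at 8 of 92 genes, all at an end, though RpS19b only through the 250 bp beside it. Their median early mutant length was 35.3% of WT, from 7.12% to 86.1%, and 7 of 8 regions were narrower in both mutant libraries, a share like the 87.2% of the 321 regions. The region of Dref is also that of RpL13, so the 2 lists share 1 region. At RpS15 with CG4945 (2R, 16569372 to 16571278) covered length was 1187 and 934 bp in early WT, 0 and 151 bp in early mutant, 1614 and 1907 bp in late WT, and 875 and 338 bp in late mutant. At RpL3, which holds several snoRNA genes, it was 1029 and 910 bp in early WT and 933 and 737 bp in early mutant. RpL3 alone of the 8 overlapped between the early genotypes.

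**Figure D4:**
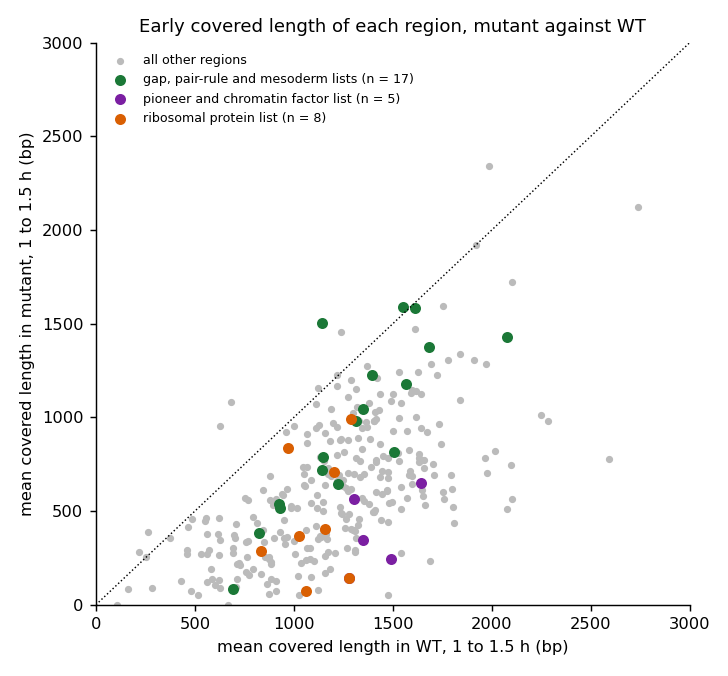
Mean covered length of each of the 321 regions at 1 to 1.5 h (bp), mutant against WT, with a dotted line of equal length. Most points lie under the line; coloured points mark 17 regions of the gap, pair-rule and mesoderm lists, 5 of the pioneer and chromatin factor list and 8 of the ribosomal protein list, and the region of Dref with RpL13 is drawn in the ribosomal colour.

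Noncoding RNA genes lay in a few regions. The snoRNA list had 15 genes in 8 regions with a median of 40.8% of early WT, and 7 of 8 were narrower in both early mutant libraries, again like the 87.2% of the 321 regions. The snRNA list had 4 genes in 2 regions, at 85.2% for a pair of U1 genes and 71.2% for a pair of U6 genes beside a tRNA gene. Integrator is known for cleaving snRNA transcripts. The U1 region (3R, 23826144 to 23828492) was covered over 1533 and 1312 bp in early WT, 1266 and 1158 bp in early mutant, 2293 and 2255 bp in late WT, and 2237 and 2253 bp in late mutant. The late mutant peaks ran past the limits of the region, where covered length is cut. Whole late peaks were 2293 and 2255 bp wide in WT and 2744 and 2795 bp wide in mutant. U1 and U6 genes have near-identical copies elsewhere, which could share reads, so these values are uncertain. The microRNA list had 11 genes in 4 regions, of which 1 was narrower in both early mutant libraries, beside 87.2% of the 321 regions. Their median was 64.4% of early WT, from 39.3% to 117.6%, and with 4 regions the difference in share was not tested. The Integrator list had 2 of 14 subunit genes touched, IntS1 and omd (IntS5), at 30.0% and 57.5% of early WT.

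Of the remaining lists some were touched and some were not. Cell cycle genes of the midblastula transition had 3 of 9 touched, trbl, stg and CycE, and all 3 regions were narrower in both early mutant libraries, beside 87.2% of the 321 regions, with a median of 69.7% of WT. Those genes encode an inhibitor of Cdc25, the fly Cdc25 and cyclin E. Of the early zygotic list 2 of 10 were touched, slam and Sry-alpha, of the heat shock list 1 of 15, Hsc70-4, of the Notch list 1 of 13, sca, and of the ecdysone list 1 of 11, usp. No gene of the segment polarity, Hox, JAK/STAT, muscle, neural, follicle cell, hemocyte with fat body and yolk, or histone lists was touched. For comparison with all these counts, 3.6% of all protein-coding genes were touched. Apart from the histone list of 115 genes, the untouched lists held 4 to 10 genes each. Lists that short can be empty at the overall share. One list symbol, Dl, is written Delta in the gene table and was not matched, although a region lay inside that gene.

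The largest early differences among regions without overlap were at 5 genes or gene groups. Inside brat the mutant minus WT difference of the means was -1819.0 bp. Inside dom (2R, 21338670 to 21341168), which encodes a remodeller that exchanges a histone H2A variant, covered length was 2142 and 2014 bp in early WT, 843 and 179 bp in early mutant, 2499 and 2354 bp in late WT, and 1967 and 1609 bp in late mutant. At Arpc4 it was 2208 and 1993, 778 and 351, 2771 and 2609, and 2068 and 2252 bp. At usp with Actn (X, 2040222 to 2042413), the receptor partner of ecdysone signalling and alpha-actinin, it was 1352 and 2024, 293 and 175, 2192 and 1620, and 867 and 1645 bp. The usp region was the only one of these 5 in which the late groups overlapped. Inside fs(1)h, a BET bromodomain gene, it was 1334 and 1621, 0 and 102, 1659 and 1915, and 496 and 752 bp.

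Only 4 regions were wider in both early mutant libraries. Besides eve these lay at mus302 with Nrt, with 1924 and 2052 bp in early WT and 2546 and 2139 bp in early mutant; at CG45087 with Pepck1, a gluconeogenesis gene, with 762 and 604 bp in WT and 1213 and 951 bp in mutant; and at CG42240, with 834 and 424 bp in WT and 920 and 984 bp in mutant. At CG45087 with Pepck1 the late lengths were 1931 and 1952 bp in WT and 1958 and 1929 bp in mutant, which overlapped. These lengths are cut at the limits of the region, which come from late WT peaks. The whole late peaks there were 1931 and 1952 bp wide in WT and 2590 and 2567 bp wide in mutant. One region hardly varied in any library and was picked after its values were seen. At Pkn with CG2063 the 8 libraries each had 1 peak that covered 1918 to 1919 bp, with starts within 4 bp and ends within 8 bp of each other.

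Between 1 to 1.5 h and 2.5 to 3 h covered length in the mutant, whose libraries the rule did not use, was higher late in nearly all of the regions. The regions were chosen as wide at the later age in WT, which can favour a higher late value in the mutant too. The size of that effect was not tested. Its total was 219.1 and 189.1 kb early and 447.1 and 445.5 kb late, a difference of 242.2 kb, or 218.7% of the early length (exact permutation p = 0.333, the smallest possible). The whole mutant lists stood at 199.9% of their early length. The share of library covered length was 4.99 ± 0.148% early and 5.45 ± 0.122% late (SD, n = 2 each, difference 0.46 percentage points, exact permutation p = 0.333). Both late mutant libraries were above both early ones in 308 regions (96.0%), against 44.2% of all regions and 88.7% of the next width class. Among regions called in all 4 mutant libraries the shares were 277 of 289 (95.8%) and 80.6%, and none was below, against 1.68%. Of the 321 regions none was below, against 4.4%, 2 were gained, against 11.6%, and none was lost, against 3.37%.

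In the WT libraries, where the rule chose late width, both late libraries were above both early ones in 274 regions (85.4%, against 28.5% of all regions) and below in none, against 21.1%. None was called in late WT alone, against 7.03%, or in early WT alone, against 13.1%. The covered length was 144.1% of the early one while the whole lists stood at 99.9%. The rule fixes a high late value there, so these shares say nothing more.

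**Figure D5:**
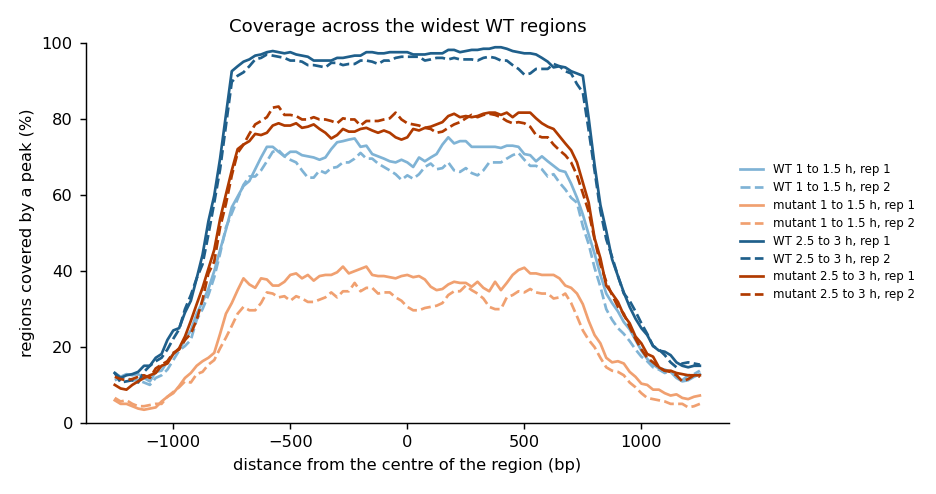
Share of the 321 regions (%) covered by a peak at each distance from the region's centre (bp), 1 line per library. At the centre early WT covers 68.5% and 65.1%, early mutant 38.9% and 30.5%, late WT 97.5% and 96.3% and late mutant 75.1% and 78.8%.

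Along the regions, covered shares were higher in the middle than at the edges in all 8 libraries. The limits are the outer ends of wide late WT peaks, so a narrower or shifted peak loses edge bases first. This order therefore follows in part from how the regions were drawn. The central 500 bp were covered to 71.0% and 67.2% in early WT, 38.1% and 33.1% in early mutant, 97.3% and 95.5% in late WT, and 77.6% and 78.8% in late mutant. The outer 250 bp on either side were covered to 58.3% and 56.3%, 32.8% and 27.9%, 91.1% and 88.6%, and 65.1% and 62.1%. Both parts were lower in early mutant than in early WT. Bases within 250 bp of a gene end were covered slightly more than the other bases in early mutant, at 38.9% and 34.0% against 34.4% and 30.2%. In early WT the values were 67.4% and 65.7% against 67.1% and 62.2%. The same order held in late WT, at 97.6% and 94.5% against 94.7% and 93.0%, and in late mutant, at 79.1% and 79.8% against 74.1% and 73.8%. This comparison took 147.8 kb near gene ends and 269.4 kb of other bases, and so not all of the 595.9 kb.

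At 2.5 to 3 h, in the contrast the rule used, the mutant covered 79.3% of the WT length, against 78.8% in the next width class and 95.9% for the whole lists. In 237 regions (73.8%) both mutant libraries were below both WT libraries, against 60.9% of the next width class and 28.0% of all regions, and none was above, against 17.0%. None was lost (7.06% of all regions) or gained (7.01%). A gain was not possible, because the rule puts a late WT peak in every region. Mutant peaks were cut at limits drawn from late WT peaks, which left little room for a mutant length above both WT libraries. Choosing regions by WT width favours a lower mutant value. Chosen in the same way on either late mutant library, 211 regions were found, and there the late mutant covered 116.1% of WT. Of those 211 regions, 127 touched one of the 321, which is 60.2% of them and 39.6% of the 321. In those 211 the early mutant covered 64.3% of early WT. When regions were chosen on WT replicate 1 alone (260) and WT was read in replicate 2, the late mutant stood at 84.7%. Chosen on replicate 2 (239) and read in replicate 1, it stood at 82.8%.

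The regions nearest the threshold show how finely it divides the peaks. Just inside it lay 3 peaks of 1502 bp, inside Doa (3R, 28920992 to 28922493), inside run (X, 20693882 to 20695383) and on 2L (5997046 to 5998547). Just outside lay peaks of 1500 bp on X, one of them at CG42240, and of 1498 bp at AP-1mu with MBD-like. All 3 of the latter were in regions through the other WT library, where their peaks were 1525, 1560 and 1528 bp wide. Across the 321 regions, mean covered lengths of early WT and early mutant had a Spearman rho of 0.63, and those of late WT and late mutant 0.52. These are given as a description over regions that share libraries, and the longer a region the more it can be covered.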

How the data were processed

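Accessible chromatin was measured by ATAC-seq in 8 libraries of whole Drosophila melanogaster embryos, grouped by genotype and age as their titles give. The deposited lists of the authors hold 1 line per peak with chromosome, start and end in bp, here treated as positions with no count, score or p-value (unit: other). Per the submitters' processing notes, the tools named are MACS2 2.2.7.1, deepTools 3.5.1, Bowtie2 2.2.5, Trimmomatic 0.39 and SAMtools 1.18, with the dm6 genome. Their settings, any shift of transposase cuts and the treatment of duplicates were not given in the sources used here. Each list belongs to 1 library, so peaks were called per library and not on pooled samples. Wider or more peaks can come from deeper sequencing, which is unknown, so covered length is not a measure of signal.

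Peaks wider than 1500 bp in either late WT list were merged at 1 bp, and the peaks of all 8 libraries were cut to these spans to give covered length, peak number and widest peak. Coordinates are dm6, 1-based. Gene spans came from a RefSeq table of the Release 6 assembly with 17872 genes and no strand, so a gene end is either end with 250 bp and may be a 3′ end; exons and introns were not analysed here. A gene was touched where a region reached an end or overlapped its span. No genome sequence was used, so promoter motifs and sequences are not shown. Scripts ran in Python 3.11.15 with NumPy 2.4.6, pandas 2.3.3, SciPy 1.17.1 and matplotlib 3.10.9, and were tested on simulated data.

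The test of a difference between group means was the exact permutation test over libraries, two-sided. Regions were counted as higher or lower where both libraries of one group lay beyond both of the other, beside the same count over all merged regions. The regions, the 27 gene lists and the comparisons were chosen with earlier results of these data known. The named regions were the 10 with the widest late WT peak on average, all list genes at a region's end, the 5 largest early falls and 5 largest rises without overlap (4 existed), up to 10 regions missing from a library (1 of them is not reported here), and those next to the threshold; list genes merely overlapped were added after their values were seen, as were the counts over regions called in all 4 libraries and the coverage by position.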

Additional observations from a re-analysis of the deposited data

Results flagged for a closer look

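In 3 cases the mutant differed from WT one way at 1 to 1.5 h and the other way at 2.5 to 3 h in every library, and the difference between ages was not tested. The share of library covered length in the 321 regions was 0.417 percentage points higher in the mutant early and differed by -1.14 points late, where the choice of regions on late WT width favours a lower mutant value. The region of eve was 362.5 bp longer in the mutant early and differed by -94.5 bp late. The region at mus302 with Nrt was 354.5 bp longer early and differed by -85.5 bp late. At both regions the same choice favours a lower late mutant value. None of the 321 regions was higher in both late mutant libraries, and 73.8% were lower, so the late direction says little about these 2.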

How the results depend on the processing

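The 3 tested differences, in covered length early (-186.6 kb), its share (0.417 percentage points) and mutant age (242.2 kb), kept their direction under every alternative, over ranges of -201.6 to -138.2 kb, 0.312 to 0.522 points and 177.7 to 257.2 kb when 1 library was left out. With the replicate block the values -186.6, 0.417 and 242.2 were the same, with an exact permutation p = 0.5, the smallest it allows. Libraries with the same replicate number share only a number: their deviations from group means correlated at -0.03 early and 0.09 late over the regions. The number of regions was 774 at 1200 bp, 75 at 2000 bp, 178 when wide in both WT libraries and 211 when chosen on the late mutant, and 239 to 260 with 1 WT library. The share lost early was 2.2% at 1200 bp, 0% at 2000 bp, 5.62% with common limits and 41.7% when a region had to be 50% covered, and 0.312% to 5.61% with 1 library left out. The share called in all 8 libraries was 94.7% at 2000 bp, 93.8% when wide in both WT libraries, 78.7% with common limits and 15.6% at 50% covered, and 90.0% to 95.3% with 1 library left out. The share narrower early was 72.5% when chosen on the late mutant and 80.7% when chosen on any of the 4 late libraries, and 85.8% to 95% with 1 library left out; the share wider was 8.06%, 4.2% and 1.26% to 4.67%. The share at a gene end was 64% when chosen on the late mutant and 82.9% with 1000 bp, and 69.9% to 70.8% with 1 WT library. The late mutant percent of WT was 76.9% at 2000 bp, 81.9% when wide in both WT libraries, 90.3% when chosen on any of the 4 late libraries, 84.7% and 82.8% when chosen on 1 WT library and read in the other, and 77.7% to 79.4% with 1 library left out. It turned to 116.1% when regions were chosen on the late mutant, where the choice itself favours the mutant. The causes of the other shifts were not tested. With 2 libraries a group and no depth, small differences in width were not detectable.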
